A study of Mus musculus with 72 samples.

Results

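Liver transcripts of 9 mice given 40 mg/mL tertiary butyl alcohol (TBA) for 28 days were compared with those of 9 mice given 10 mg/mL for the same 28 days. These 18 libraries were chosen by their labelled dose and exposure duration from 72 libraries in all, and no undosed animal enters the contrast. All were female B6C3F1 mice, 9 to 11 weeks old, housed singly, with TBA supplied in the drinking water and no other agent named. The labels give the concentration in the water and not the amount drunk, and the data cover 1 strain and 1 sex. The other groups of the series held 9 mice each: undosed or at 20 mg/mL for 28 days, and all 4 doses for 14 days. Mouse numbers below follow the order of the samples and only name a library. Livers were fixed in formalin, embedded in paraffin, sectioned, scraped from slides and measured by TempO-Seq, in which pairs of short detector oligos are ligated on their target RNA and the ligated products are counted. The unit of analysis is a probe feature, and a gene can have several. The comparison asks how the liver transcriptome differs between the highest and the lowest dose, in a study concerned with thyroid hormone disposal as a route to thyroid tumours.

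TBA is a tertiary alcohol, which alcohol dehydrogenases cannot oxidise in the way they oxidise ethanol, and it is cleared largely by hepatic cytochromes P450. Many foreign chemicals activate the receptor CAR in hepatocytes, which raises Cyp2b10 and enzymes that conjugate thyroxine with glucuronic acid or sulfate. The liver also secretes the proteins that carry thyroxine in blood, among them Serpina7 (thyroxine-binding globulin), transthyretin and albumin. Hepatocytes further release hormones of energy balance such as Fgf21, which is raised by fasting and by nutrient or cell stress.

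The 18 libraries held between 8.331 M and 11.85 M counts (M, mega), and the mean total was 9.91 ± 0.855 M at 10 mg/mL and 9.58 ± 1.12 M at 40 mg/mL (SD, n = 9 each; exact two-sided permutation test, p = 0.495). The scaling factor of each library (TMM, trimmed mean of M values) ran from 0.841 to 1.10 at 10 mg/mL and over a wider range, 0.798 to 1.40, at 40 mg/mL, where mice 6 and 7 had the highest values, 1.35 and 1.40. The 20 most abundant features took 20.1 ± 1.54% of the counts at 10 mg/mL and 17.6 ± 3.36% at 40 mg/mL (exact permutation test, p = 0.0540). All 8 hepatocyte markers were measured, and their summed level overlapped between the groups (24130 to 44860 CPM at 10 mg/mL and 16140 to 57160 CPM at 40 mg/mL; CPM is the counts-per-million value after TMM scaling). The summed levels of 10 other marker lists (cholangiocyte, Kupffer, sinusoidal endothelial, stellate, T and NK, B and plasma, neutrophil, erythroid, adipocyte and mesothelial) overlapped too, and 4 of the 6 adipocyte markers (Adipoq, Lep, Plin1 and Retn) had no count in any of the 18 libraries, as had Cd8a and Elane of the T cell and neutrophil lists. Within the 2 groups, libraries correlated with Spearman coefficients from 0.927 to 0.970 across features, and no library was a copy of another.

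At 28 days 9 features were higher and 4 lower at 40 than at 10 mg/mL, 13 of the 17050 tested (0.0762%) at a Benjamini-Hochberg adjusted p under 0.05 in edgeR's quasi-likelihood test. They represent 11 genes. In whole liver sections, more cells of a type and more RNA per cell cannot be told apart. Serpina7 and Fgf21 rose most, each by 2 separate probes, followed by the leptin receptor gene Lepr, the taurine synthesis enzyme Csad, Pcgf2, Scp2 and Arhgap5. The genes that fell were Sult5a1, Lhpp, Slc46a3 and Igfbp4. At an unadjusted p under 0.05, 805 features were higher and 566 lower, and the median log2 fold change over all features was 0.03. Read with the most abundant probe of each gene alone, 8 of 11784 genes passed (0.0679%), since the called probes of Lhpp, Igfbp4 and Scp2 were not the most abundant ones of those genes. The main fit left out 1 shallow library, from 40 mg/mL and 14 days, which belongs to neither compared group. Keeping that shallow library in the shared fit ended the calls of Lepr, Csad, Arhgap5, Scp2, Lhpp, Igfbp4 and Slc46a3. Leaving out mice 6 and 7 at 40 mg/mL ended those of Lepr, Csad, Pcgf2, Igfbp4 and Slc46a3. A fit of the compared groups alone ended those of both Fgf21 probes and Csad, and kept Igfbp4 only just below the threshold. The plot of all tested features shows the 2 probes of Serpina7 and the 2 of Fgf21 set apart on the right.

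**Figure D1:**
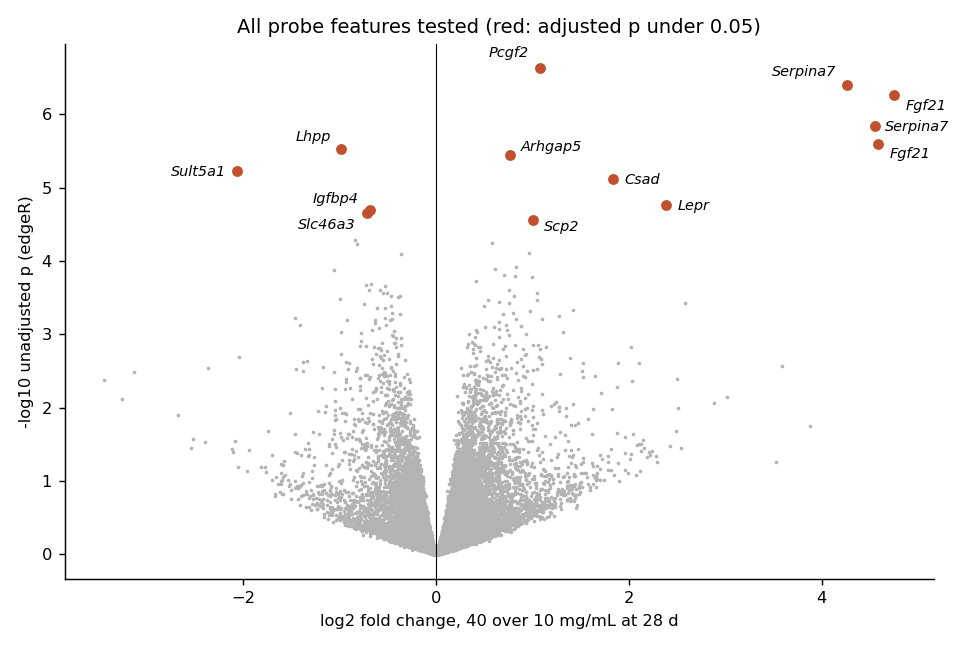
Each point is 1 of 17050 probe features, placed by its log2 fold change (40 over 10 mg/mL at 28 days, x axis) and the negative log10 of its unadjusted edgeR p (y axis); the 13 features past the adjusted threshold are red and named. The 4 points of Serpina7 and Fgf21 lie between 4.26 and 4.75 on the x axis.

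The 250 bases upstream of the annotated starts of Serpina7 and Fgf21, the 2 genes that rose most, are given from RefSeq (GRCm38.p6, both on the minus strand, written 5′ to 3′ along the gene), because both encode secreted proteins and were high in different animals. Serpina7 has a second annotated start inside the transcript, and the stretch before the outer start is shown, chrX:139085237-139085486. The Fgf21 stretch is chr7:45615491-45615740. Capitals mark 4 motifs searched on both strands: TTGCATCA (letters of the amino acid response element), CACGTG (the E-box), the HNF1 consensus with free central bases and TATAAA (the TATA box). No motif overlaps another in these stretches.
Serpina7: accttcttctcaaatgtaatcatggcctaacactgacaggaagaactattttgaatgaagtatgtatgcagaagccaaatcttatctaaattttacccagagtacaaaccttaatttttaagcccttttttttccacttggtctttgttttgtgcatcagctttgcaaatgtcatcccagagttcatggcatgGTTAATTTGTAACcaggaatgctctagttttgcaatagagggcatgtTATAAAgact
Fgf21: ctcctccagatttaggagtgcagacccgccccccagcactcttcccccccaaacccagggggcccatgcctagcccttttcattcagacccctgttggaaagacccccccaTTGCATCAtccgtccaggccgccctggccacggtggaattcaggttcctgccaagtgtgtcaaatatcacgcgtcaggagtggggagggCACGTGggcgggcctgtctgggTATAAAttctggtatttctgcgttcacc
Of 32851 such stretches, TTGCATCA is in 0.791%, CACGTG in 6.02%, the HNF1 consensus in 0.0822% and TATAAA in 12.4%. Serpina7 holds the HNF1 letters and the TATA letters, and Fgf21 holds the other two with the TATA letters. The 2 stretches share only TATAAA among the motifs searched.

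Serpina7 encodes thyroxine-binding globulin, a plasma carrier of thyroid hormone. The more abundant of its 2 probes had a lowest, median and highest level of 5.58, 14.5 and 95.2 CPM at 10 mg/mL, and of 51.6, 288 and 1341 CPM at 40 mg/mL. Of the 9 mice at 40 mg/mL, 6 lay above every mouse at 10 mg/mL, and the other 3 lay above all but mouse 1 of that group. The mean was 23.9 ± 27.8 CPM at 10 mg/mL and 457 ± 456 CPM at 40 mg/mL (SD, n = 9 each), a log2 fold change of 4.26 ± 0.75 (SE; 19.2-fold; edgeR adjusted p = 0.00315). The second probe, read at a much lower level, gave 4.55 ± 0.85 (edgeR adjusted p = 0.00618). Both probes passed in each of 14 alternative analyses and in each of the 18 fits that left out 1 library of the 2 groups. The spread at 40 mg/mL was wide, with mouse 5 at 1341 CPM and mouse 1 at 51.6 CPM.

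Fgf21, a hormone of fasting and metabolic stress, was close to undetected at 10 mg/mL, where its more abundant probe had a lowest, median and highest level of 0, 1.35 and 2.00 CPM. At 40 mg/mL these were 0.305, 15.2 and 162 CPM. Mice 1, 3, 4, 6 and 7 at 40 mg/mL stood above all mice at 10 mg/mL, at 20.7, 162, 46.0, 47.5 and 15.2 CPM, while mice 2, 5, 8 and 9 had 0.305, 1.71, 1.77 and 1.21 CPM and lay within the range of the lower dose. The log2 fold change was 4.75 ± 0.85 (SE; 26.9-fold; edgeR adjusted p = 0.00315), and the second probe gave 4.59 ± 0.89 (edgeR adjusted p = 0.00836). On the mean of log2 CPM the difference was smaller, 2.87 (exact permutation test, p = 0.0146). Without mouse 3 at 40 mg/mL the adjusted p of both probes was 0.0501, and neither probe passed in limma with quality weights.

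Among the mice at 40 mg/mL, those high in Fgf21 were not those highest in Serpina7. Mice 2, 5, 8 and 9 had the 4 highest Serpina7 levels of the group (957, 1341, 659 and 523 CPM) and the 4 lowest Fgf21 levels. Mice 1, 6 and 7 had the 3 lowest Serpina7 levels (51.6, 67.8 and 68.7 CPM) with Fgf21 above 15 CPM, and mice 3 and 4 were intermediate in Serpina7 (155 and 288 CPM). Csad divided the mice as Fgf21 did, with 3.96, 5.56, 7.72 and 6.28 CPM in mice 2, 5, 8 and 9 and 17.3 CPM or more in the other 5. Pnpla3 and Igfbp1 had their 5 highest levels in mice 1, 3, 4, 6 and 7. Cyp2b10, the usual readout of CAR, was at 66.5, 24.7, 30.6 and 39.3 CPM in mice 1, 3, 6 and 7, below every mouse at 10 mg/mL, and at 338 CPM or more in the other 5. Undosed mice at 28 days had 23.7 to 95.2 CPM of Cyp2b10, a range that holds the levels of mice 1, 3, 6 and 7. Its low end was undosed mouse 3, a library with a scaling factor of 1.37. The next undosed level was 37.5 CPM, above mice 3 and 6 at 40 mg/mL. At 10 mg/mL Fgf21 was at or below 2.00 CPM in all 9 mice, and mouse 1 of that group had the highest Serpina7 (95.2 CPM) and Cyp2b10 (610 CPM) together with the lowest Csad and Sult5a1 (1.67 CPM each). The scaling factors of mice 2, 5, 8 and 9 at 40 mg/mL (0.831, 0.798, 1.08 and 0.988) lay within the range of the other 5 (0.907 to 1.40) or below it, and the part of library composition in this pattern was not tested. These orders were noticed in the values, so no test or correlation is given for them. The map of single animals shows Lepr and Sult5a1 displaced in nearly every column at 40 mg/mL, and Lhpp by smaller amounts. Serpina7, Fgf21 and Cyp2b10 are displaced in different columns.

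**Figure D2:**
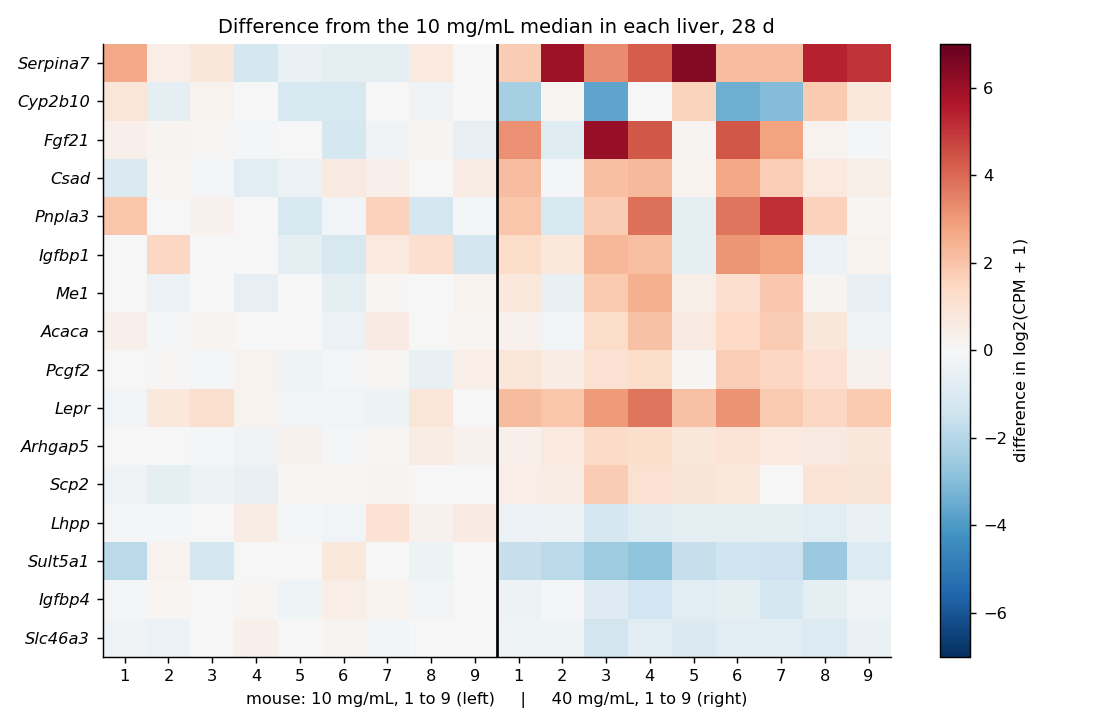
Rows are 16 genes, columns the 9 mice at 10 mg/mL and the 9 mice at 40 mg/mL (28 days), and colour is the difference in log2(CPM + 1) from the median of the 10 mg/mL mice (red higher, blue lower). In the right block, mice 2, 5, 8 and 9 are highest for Serpina7 and at or below 1.77 CPM for Fgf21, whereas mice 1, 3, 6 and 7 are blue for Cyp2b10.

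Lepr encodes the leptin receptor, whose soluble form circulates in blood and is a binding protein for leptin. Its more abundant probe had a lowest, median and highest level of 3.69, 5.00 and 11.9 CPM at 10 mg/mL and of 15.1, 24.0 and 79.7 CPM at 40 mg/mL. The groups did not overlap. All 9 mice at 40 mg/mL exceeded all 9 at 10 mg/mL, which held for 6 of 17050 features (0.0352%). The log2 fold change was 2.39 ± 0.51 (SE; 5.23-fold; edgeR adjusted p = 0.0292). A second, rarely read probe moved by 2.50 ± 0.84 without passing (edgeR adjusted p = 0.286). The call did not hold when mice 1, 4, 6, 7 or 9 at 10 mg/mL or 3, 4 or 6 at 40 mg/mL were left out singly (edgeR adjusted p up to 0.149), although the fold change stayed between 2.12 and 2.53.

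Csad, cysteine sulfinic acid decarboxylase, catalyses a step of taurine synthesis. Its lowest, median and highest level was 1.67, 4.47 and 7.62 CPM at 10 mg/mL and 3.96, 17.3 and 34.6 CPM at 40 mg/mL. Of the mice at 40 mg/mL, 6 lay above all mice at 10 mg/mL. The log2 fold change was 1.84 ± 0.38 (SE; edgeR adjusted p = 0.0144), and the call was lost without mouse 1 or 4 at 10 mg/mL or mouse 3, 4 or 6 at 40 mg/mL (edgeR adjusted p up to 0.0726).

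Pcgf2, Arhgap5 and Scp2 rose by less and with a narrower spread. Pcgf2, a subunit of Polycomb repressive complexes, had a lowest, median and highest level of 6.34, 9.68 and 13.5 CPM at 10 mg/mL and 10.3, 20.2 and 34.8 CPM at 40 mg/mL. In 7 of 9 mice it was above every mouse of the lower dose, with a log2 fold change of 1.07 ± 0.19 (SE; edgeR adjusted p = 0.00315). Without mice 6 and 7 at 40 mg/mL, which had high scaling factors, its log2 fold change was 0.84 (edgeR adjusted p = 0.0608). Arhgap5, a GTPase-activating protein, had levels of 15.9 to 28.1 CPM at 10 mg/mL and 24.3 to 49.0 CPM at 40 mg/mL. Its log2 fold change was 0.77 ± 0.15 (SE; edgeR adjusted p = 0.00877), with the call lost without mouse 3 or 4 at 40 mg/mL (edgeR adjusted p up to 0.0721).

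Scp2 encodes sterol carrier protein and a peroxisomal thiolase from the same gene, and it was read by 4 probes. The called probe ran from 68.4 to 122 CPM at 10 mg/mL and from 108 to 362 CPM at 40 mg/mL, a log2 fold change of 1.00 ± 0.22 (SE; edgeR adjusted p = 0.0363). The 3 more abundant probes gave 0.19 ± 0.11, 0.28 ± 0.13 and 0.69 ± 0.19 and none passed (smallest edgeR adjusted p = 0.163). Leaving out 1 of 12 libraries ended the call (mice 1, 2, 3, 4, 6, 8 and 9 at 10 mg/mL and 3, 4, 5, 6 and 8 at 40 mg/mL; edgeR adjusted p up to 0.231), and so did summing the probes. Which transcript each probe reads was not analysed here.

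Of the genes that fell, Sult5a1 and Lhpp changed most. Sult5a1 belongs to the cytosolic sulfotransferases. Its lowest, median and highest level was 1.67, 8.88 and 15.7 CPM at 10 mg/mL and 0.399, 2.28 and 4.11 CPM at 40 mg/mL. The 7 mice at 10 mg/mL other than 1 and 3 had more than any mouse at 40 mg/mL. Sult5a1 fell by 2.07 ± 0.42 on the log2 scale (SE; 4.20-fold lower; edgeR adjusted p = 0.0125), and the call was lost without mouse 6 at 10 mg/mL or mice 3 or 4 at 40 mg/mL (edgeR adjusted p up to 0.0567). Lhpp encodes a phosphohistidine phosphatase. Its called probe ran from 13.9 to 34.1 CPM at 10 mg/mL and from 6.74 to 12.7 CPM at 40 mg/mL, with no overlap between the groups, a separation seen downwards in 7 of 17050 features (0.0411%). Lhpp fell by 0.98 ± 0.19 on the log2 scale (SE; edgeR adjusted p = 0.00836) and the call held in each of the 18 fits without 1 library. The more abundant Lhpp probe overlapped between the groups and gave -0.62 ± 0.17 (edgeR adjusted p = 0.153).

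Igfbp4 and Slc46a3 moved by the smallest amounts. Igfbp4 is a binding protein for insulin-like growth factors. Its called probe ran from 81.4 to 140 CPM at 10 mg/mL and from 39.7 to 98.2 CPM at 40 mg/mL, a log2 fold change of -0.69 ± 0.15 (SE; edgeR adjusted p = 0.0312). The 2 more abundant probes of the gene gave -0.29 ± 0.17 and -0.35 ± 0.16 (edgeR adjusted p = 0.713 and 0.540), and summing the 3 gave no call. Slc46a3, a lysosomal solute carrier, ran from 23.9 to 40.4 CPM at 10 mg/mL and from 12.7 to 25.6 CPM at 40 mg/mL, a log2 fold change of -0.72 ± 0.16 (SE; edgeR adjusted p = 0.0314). Both calls were lost in 10 of the 18 fits without 1 library (edgeR adjusted p up to 0.150 for Igfbp4 and 0.129 for Slc46a3). For both genes those fits included the ones without mice 4 and 6 at 10 mg/mL and without mice 3, 4, 5, 6, 7 and 8 at 40 mg/mL. The remaining fits left out mice 2 and 7 at 10 mg/mL for Igfbp4 and mice 8 and 9 at 10 mg/mL for Slc46a3.

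The undosed and 20 mg/mL groups place the contrast. For all 13 called features the mean level of the 0 mg/mL mice and that of the 20 mg/mL mice lay between the means of 10 and 40 mg/mL. For Serpina7 the undosed mice averaged 27.8 CPM, near the 10 mg/mL mice, and the 20 mg/mL mice 128 CPM. Lepr averaged 9.55 CPM undosed and 15.9 CPM at 20 mg/mL. For Scp2 the undosed mean, 158 CPM, was far from that of 10 mg/mL (98.9 CPM), and for Sult5a1 it was 4.50 CPM against 8.18 CPM at 10 mg/mL and 1.94 CPM at 40 mg/mL. The features were called on these 2 doses, so the position of the others was not tested. In the same fit, 40 against 0 mg/mL called 1 feature at 28 days (0.00587%), the more abundant probe of Serpina7 (log2 fold change 4.04 ± 0.75, edgeR adjusted p = 0.0166). At 10 against 0 mg/mL edgeR called 0 features (0%), with 707 at an unadjusted p under 0.05. At 20 against 0 mg/mL it called 27 of 17050 features, 11 higher and 16 lower, with 2583 at an unadjusted p under 0.05. All of these contrasts use the same undosed mice. Scaling factors at 20 mg/mL ran from 0.907 in mouse 7 to 1.48 in mouse 9. In these 2 libraries the 20 most abundant features took 20.3% and 10.6% of the counts. The part of library composition in the calls at 20 mg/mL was not tested. Fgf21 gave 2.95 ± 0.76 at 40 against 0 mg/mL and -1.80 ± 0.82 at 10 against 0 mg/mL. In the same order Sult5a1 gave -1.21 ± 0.42 and 0.86 ± 0.40, and Scp2 0.32 ± 0.22 and -0.68 ± 0.22. None of these passed. The dose plots show Serpina7 and Lepr higher at 20 mg/mL than at 10 mg/mL by their medians. Undosed mice had Fgf21 levels of 0.245 to 8.32 CPM with a median of 3.66 CPM, above the median of 1.35 CPM at 10 mg/mL. At 20 mg/mL the median was 1.44 CPM, and mice 8 and 9 reached 10.7 and 10.6 CPM.

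**Figure D3:**
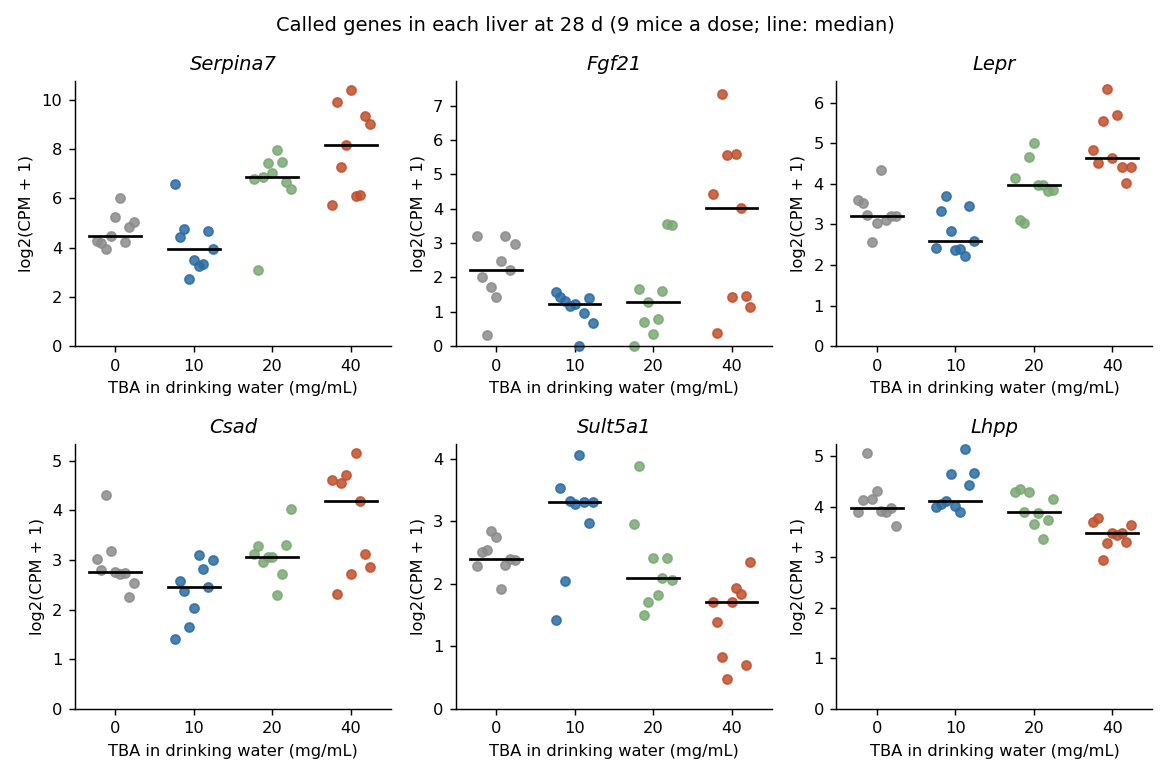
Level of 6 called genes (1 probe each) in every mouse at 28 days, as log2(CPM + 1) on the y axis against TBA concentration on the x axis; points are mice (9 a dose) and lines are medians. Lepr and Lhpp do not overlap between 10 and 40 mg/mL, and the 40 mg/mL mice fall into a high and a low set for Fgf21 and Csad.

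A further 11 features separated the groups without overlap and did not pass, and they were singled out after their values were seen. Those lower at 40 mg/mL included 2 carboxylesterases, enzymes that hydrolyse esters and lipids. Ces2c ran from 47.5 to 127 CPM at 10 mg/mL and from 16.1 to 43.6 CPM at 40 mg/mL (log2 fold change -1.17 ± 0.38, edgeR adjusted p = 0.274). Ces1g ran from 168 to 220 CPM and from 55.9 to 165 CPM (-0.79 ± 0.27, edgeR adjusted p = 0.286); it has close paralogs whose reads a short probe may share. Sult2a8, a hepatic sulfotransferase, ran from 224 to 320 CPM and from 113 to 221 CPM (-0.54 ± 0.30, edgeR adjusted p = 0.673). Prkcz, an atypical protein kinase C, ran from 17.4 to 31.7 CPM and from 7.29 to 16.0 CPM (-0.82 ± 0.19, edgeR adjusted p = 0.0634). Tlcd2 and Slc25a21, a mitochondrial carrier, gave -0.92 ± 0.26 and -0.56 ± 0.15. Higher at 40 mg/mL were Ski, a repressor of TGF-beta signalling (0.73 ± 0.21), Ccdc58 (0.72 ± 0.21), Rala, a small GTPase (0.62 ± 0.20), Gm11437 (0.99 ± 0.34) and Sh3glb1 (1.10 ± 0.55). The probes of Ccdc58 and Rala were not the most abundant ones of those genes, and their most abundant probes did not separate the groups. When the fit held the 2 compared groups alone, 24 features passed, with Prkcz, Tlcd2, Ces2c, Ces1g, Slc25a21 and Ccdc58 among them. That fit used the same libraries in which these features were singled out, so it is no separate test of them.

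Genes of thyroid hormone disposal, alcohol handling and CAR activation were listed for description whatever their result. None of the 22 passed in edgeR (2 at an unadjusted p under 0.05), in DESeq2 or in limma, and Me1 alone passed with the log2 TMM factor as a covariate or with surrogate variables. Me1, malic enzyme and a thyroid hormone target, ran from 108 to 195 CPM at 10 mg/mL and from 111 to 942 CPM at 40 mg/mL (log2 fold change 1.32 ± 0.38, edgeR adjusted p = 0.197). Ugt2b1, a glucuronosyltransferase, ran from 53.7 to 113 CPM and from 24.0 to 77.9 CPM (-0.60 ± 0.25, edgeR adjusted p = 0.466). In the exact permutation test its p was 0.00481 unadjusted and 0.106 adjusted over the 22 genes, so it did not pass there either. Dio1, the hepatic deiodinase, gave -0.37 ± 0.27. Sult1a1, Aldh2 and Cyp2e1, which oxidises small alcohols, gave -0.29 ± 0.17, -0.25 ± 0.13 and -0.26 ± 0.24, and Ugt2b35 gave 0.21 ± 0.15. Cyp2b10 ran from 153 to 610 CPM at 10 mg/mL and from 24.7 to 1201 CPM at 40 mg/mL. Its medians were alike (335 and 338 CPM), its fitted log2 fold change was 0.35 ± 0.71 and its difference in mean log2 CPM was -0.71 (exact permutation test, p = 0.370), so its direction depends on how the values are averaged. Undosed mice at 28 days averaged 56.5 CPM of Cyp2b10, below the means of 315, 778 and 401 CPM at 10, 20 and 40 mg/mL. Against 0 mg/mL its log2 fold change was 2.48 ± 0.75 at 10 mg/mL and 2.83 ± 0.76 at 40 mg/mL, and neither passed. At 20 mg/mL it was 3.78 (edgeR adjusted p = 0.0497). The other 13 genes (Cyp3a11, Cyp2c29, Por, Ugt1a1, Ugt1a6a, Ugt2b34, Sult1d1, Ttr, Alb, Slco1a1, Slco1b2, Thrsp and Adh1) lay between -0.22 and 0.13, each within 1 SE of 0.

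The list counts below use the most abundant probe of each gene and are read against the background at an unadjusted p under 0.05, which was 4.79% of genes higher and 3.62% lower, and a median log2 fold change over all genes of 0.03. Of 25 pathway lists, 3 distinct members passed the adjusted threshold: Serpina7, Fgf21 and Sult5a1. Among all genes, read the same way, 8 of 11784 passed it (0.0679%). The thyroid hormone carriers, transporters and deiodinases had 1 of 17 members called (Serpina7) and a median log2 fold change of 0.04, with the uptake carrier Slco2b1 at -0.42 ± 0.14 and the cytosolic binding protein Crym at 0.35 ± 0.16. Thyroid hormone responsive genes had 1 of 21 called (Fgf21) and a median of -0.01. The CAR and PXR targets had 0 of 31 called in edgeR, with 0 higher and 4 lower at an unadjusted p under 0.05 (Aldh1a1, Aldh1a7 and Cyp3a41a among them). Sulfotransferases had 1 of 12 called (Sult5a1), and Sult1b1 gave -0.64 ± 0.18. The strip plot of the lists shows medians on both sides of 0 and few members beyond 1 in either direction.

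**Figure D4:**
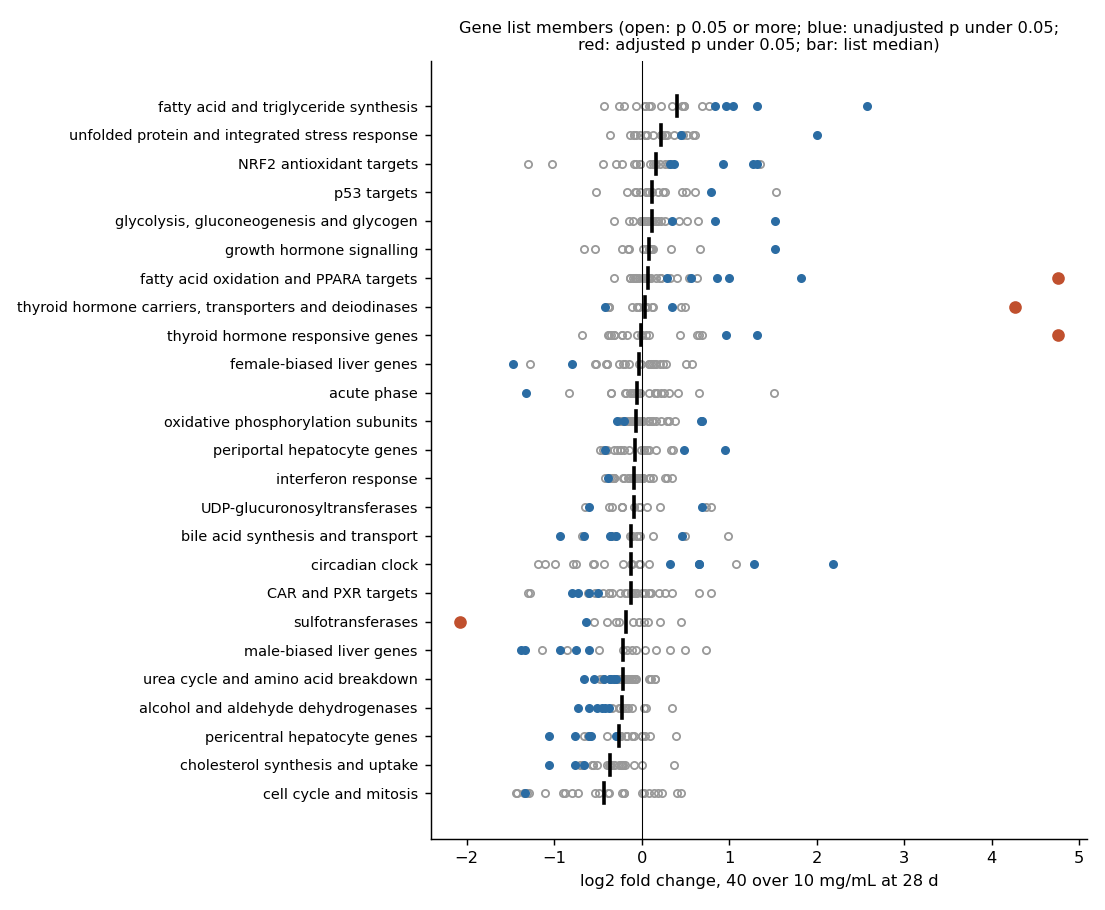
Log2 fold change (40 over 10 mg/mL at 28 days, x axis) of each measured member of 25 gene lists (y axis), 1 probe a gene, with the list median as a bar; open points have an unadjusted p of 0.05 or more, blue points less, and red points pass the adjusted threshold. Cholesterol synthesis has 22 of 23 members left of 0, and fatty acid and triglyceride synthesis has 16 of 20 members right of 0.

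Lipid synthesis lists lay on opposite sides of 0, with 0 members called in either by edgeR. Fatty acid and triglyceride synthesis had 16 of 20 members above 0 and a median of 0.40, with 5 higher and 0 lower at an unadjusted p under 0.05. Without mice 6 and 7 at 40 mg/mL, which held 2 of the 3 highest Pnpla3 levels, the median was 0.23 with 4 higher. Pnpla3, a lipid droplet protein induced by feeding, ran from 6.44 to 67.1 CPM at 10 mg/mL and from 7.11 to 593 CPM at 40 mg/mL (2.58 ± 0.69, edgeR adjusted p = 0.147). Acaca, acetyl-CoA carboxylase, ran from 53.6 to 108 CPM and from 59.2 to 295 CPM (0.97 ± 0.26, edgeR adjusted p = 0.163). Both passed in DESeq2, at adjusted p = 0.0189 and 0.0360. Cholesterol synthesis and uptake had 22 of 23 members below 0 and a median of -0.37, with 3 lower at an unadjusted p under 0.05. With the log2 TMM factor as a covariate the median was -0.20 with 2 lower, and with the compared groups alone 8 were lower. The 3 were Msmo1 (-1.05 ± 0.41), Mvk (-0.77 ± 0.30) and Tm7sf2 (-0.66 ± 0.23), 3 enzymes of the pathway, and each passed when the compared groups were fitted alone. Fatty acid oxidation and PPARA targets had 1 of 32 called (Fgf21), 6 higher at an unadjusted p under 0.05 and a median of 0.08, with Pdk4, a kinase that spares pyruvate, at 1.82 ± 0.69 and Pex11a at 0.57 ± 0.19. Glycolysis, gluconeogenesis and glycogen genes had 3 of 26 higher at that level and a median of 0.12, with Igfbp1, a fasting-responsive binding protein, at 1.52 ± 0.48 and Pklr at 0.83 ± 0.26. The median level of Igfbp1 was 86.6 CPM undosed, 33.7 CPM at 10 mg/mL and 83.2 CPM at 40 mg/mL. For Pklr these were 34.6, 41.9 and 90.4 CPM.

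Lists of amino acid and alcohol breakdown lay mostly below 0, again with 0 members called by edgeR. Urea cycle and amino acid breakdown had 29 of 34 members below 0 and a median of -0.21, with 7 lower and 0 higher at an unadjusted p under 0.05. Without mice 6 and 7 at 40 mg/mL, the libraries with the highest scaling factors, the median was -0.09 with 2 lower. With the shallow library kept 1 was lower, and in limma with quality weights 15. Prodh, which starts proline breakdown, gave -0.66 ± 0.21, Gpt, alanine aminotransferase, -0.55 ± 0.21, and Kmo, an enzyme of tryptophan breakdown, -0.29 ± 0.10. Alcohol and aldehyde dehydrogenases had 15 of 18 below 0 and a median of -0.23, with 6 lower. Without mice 6 and 7 the median was -0.13 with 4 lower, with the shallow library kept 2 were lower, and with surrogate variables 12. Aldh7a1 ran from 242 to 345 CPM at 10 mg/mL and from 135 to 261 CPM at 40 mg/mL (-0.51 ± 0.13, edgeR adjusted p = 0.138), and Adh5 from 389 to 538 CPM and from 287 to 462 CPM (-0.38 ± 0.10, edgeR adjusted p = 0.163). Both passed in DESeq2, at adjusted p = 0.0386 and 0.0231. Aldh1a1 and its close paralog Aldh1a7 gave -0.73 ± 0.22 and -0.60 ± 0.19. Pericentral hepatocyte genes had 17 of 22 below 0 and 5 lower at an unadjusted p under 0.05, with a median of -0.26. Without mice 6 and 7 the median was -0.14 with 1 lower and 1 higher, and with the shallow library kept 3 were lower. Oat, ornithine aminotransferase, ran from 270 to 589 CPM and from 74.4 to 376 CPM (-1.06 ± 0.26, edgeR adjusted p = 0.109; DESeq2 adjusted p = 0.0189), Cyp1a2 gave -0.77 ± 0.30 and Lect2 -0.58 ± 0.24. Periportal genes had 9 of 20 above 0 and a median of -0.08.

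Other lists held 0 called members in edgeR. Bile acid genes had 5 of 18 lower and 1 higher at an unadjusted p under 0.05, with Cyp7b1 at -0.94 ± 0.31, Akr1d1 at -0.36 ± 0.13 and the conjugating enzyme Baat at 0.46 ± 0.17. Male-biased liver genes had 5 of 17 lower, Elovl3 (-1.38 ± 0.44) and Selenbp2 (-0.60 ± 0.18) among them, and female-biased genes 2 of 25 lower, Atp6v0d2 (-1.47 ± 0.41) and Cyp3a41a (-0.80 ± 0.32), of which Cyp3a41a has near-identical paralogs. NRF2 targets had 5 of 24 higher, with Me1, Osgin1 (0.93 ± 0.29) and Txnrd1 (0.33 ± 0.12). Median levels at 0, 10 and 40 mg/mL were 200, 166 and 274 CPM for Me1 and 112, 49.0 and 76.8 CPM for Osgin1. Those of Txnrd1 were 97.0, 84.4 and 100 CPM. Circadian clock genes had 5 of 20 higher, with Arntl at 1.28 ± 0.42, Nfil3 at 0.65 ± 0.26 and Clock at 0.33 ± 0.15, and a median of -0.12. At 0, 10 and 40 mg/mL the median level was 4.72, 1.67 and 5.17 CPM for Arntl and 40.2, 28.0 and 36.8 CPM for Nfil3. For Clock it was 43.7, 35.1 and 42.7 CPM. The undosed medians of Arntl, Nfil3 and Clock thus lay nearer those of 40 mg/mL than those of 10 mg/mL. Without mice 6 and 7 at 40 mg/mL 2 clock genes were higher, and with the shallow library kept 2 bile acid genes were lower and 3 NRF2 targets higher. The unfolded protein and integrated stress response had 2 of 23 higher, p53 targets 1 of 17 higher (Gadd45a, 0.80 ± 0.30), the interferon response 1 of 28 lower (H2-D1, -0.38 ± 0.14), the acute phase 1 of 26 lower, UDP-glucuronosyltransferases 1 of 15 each way, growth hormone signalling 1 of 15 higher (Igfbp1), and oxidative phosphorylation 2 of 40 each way. Cell cycle and mitosis genes had a median of -0.43 with 1 of 26 lower (Cdk1, -1.33 ± 0.65), and a median of -0.81 with 3 lower without mice 6 and 7.

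The same doses were compared at 14 days in 17 other libraries, 1 library at 40 mg/mL having been left out for its depth. There 396 features were called (2.32%). Of the 13 features called at 28 days, 4 (30.8%) were also called at 14 days in the same direction, which is 1.01% of the 14 day calls. They were Pcgf2 (0.77 ± 0.19), Slc46a3 (-0.84 ± 0.17), Igfbp4 (-0.56 ± 0.16) and the second Fgf21 probe (2.95 ± 0.86). In sign, 10 of the 13 were alike at both durations, the exceptions being Lhpp and the 2 probes of Serpina7. A test of the difference between durations called 6 features (0.0352%). None of the 6 was kept with the compared groups alone, with the covariate or with surrogate variables, and 1 (Atad2b) was kept in limma. DESeq2 and edgeR with DESeq2's size factors kept all 6.

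Serpina7 was one of them, with a 28 minus 14 day difference of 4.70 ± 1.00 and 5.29 ± 1.14 for its probes (edgeR adjusted p = 0.0484 for both). The Serpina7 calls were lost in limma, with the compared groups alone, with the log2 TMM factor as a covariate and with surrogate variables, where the differences were smallest (2.11 and 2.91). At 14 days its lowest, median and highest levels were 16.9, 26.3 and 707 CPM at 10 mg/mL and 22.3, 91.2 and 187 CPM at 40 mg/mL. The 14 day fold change, -0.44 ± 0.68, rested on mouse 3 at 10 mg/mL, the library at 707 CPM. By medians the 40 mg/mL group was the higher one at 14 days as well. Without that library the difference between durations was 3.31 and 4.17 for the probes and neither passed (edgeR adjusted p = 0.273 and 0.262). Over 35 fits that each left out 1 library of the 4 groups, both probes passed in 11: without mouse 1 at 10 mg/mL or mice 1, 3, 6 or 7 at 40 mg/mL (28 days), and without mice 1, 4, 5, 6 or 8 at 10 mg/mL or mouse 2 at 40 mg/mL (14 days).

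Cdk1 and Birc5, which drive and execute mitosis, and H2bc8, a replication-dependent histone, had the opposite pattern. Cdk1 differed between durations by -4.46 ± 0.90, Birc5 by -4.36 ± 0.88 (edgeR adjusted p = 0.0308 for both) and H2bc8 by -2.15 ± 0.45 (edgeR adjusted p = 0.0464). At 14 days Cdk1 ran from 0.362 to 4.27 CPM at 10 mg/mL and from 0.712 to 79.9 CPM at 40 mg/mL, and at 28 days from 0.674 to 3.96 CPM and from 0.143 to 2.63 CPM. Birc5 ran from 0.234 to 3.96 CPM and from 1.08 to 79.8 CPM at 14 days. At 14 days mice 1, 4, 6 and 7 at 40 mg/mL lay above every mouse at 10 mg/mL in both Cdk1 and Birc5. Mice 1, 4 and 6 had 12.6, 7.07 and 10.8 CPM of Cdk1 and 21.8, 8.42 and 16.0 CPM of Birc5. Of 26 cell cycle and mitosis genes, 12 were called higher at 14 days (median log2 fold change 2.27), beside 2.32% of all features called. The highest levels of Cdk1, Birc5 and H2bc8 at 14 days came from mouse 7 at 40 mg/mL, and their 3 calls for the difference between durations were lost without that library (edgeR adjusted p up to 0.276 over the 35 fits). Cdk1 and Birc5 were also lost without mouse 1 at 40 mg/mL or mice 2, 3, 7 or 9 at 10 mg/mL (14 days), and without mice 4 or 6 at 10 mg/mL or mice 2, 4, 5 or 8 at 40 mg/mL (28 days). H2bc8 was lost in the same fits and without mouse 1 at 10 mg/mL or mouse 6 at 40 mg/mL (14 days), or mice 2, 3, 7, 8 or 9 at 10 mg/mL (28 days). Atad2b, a bromodomain ATPase, moved the other way, by 1.12 ± 0.22 (edgeR adjusted p = 0.0308), from a range of 10.2 to 22.3 CPM at 14 days to 18.2 to 35.1 CPM at 28 days at 40 mg/mL. It was lost without mouse 6 at 10 mg/mL or mice 4 or 5 at 40 mg/mL (28 days), or without mouse 9 at 10 mg/mL or mice 1 or 7 at 40 mg/mL (14 days; edgeR adjusted p up to 0.101). The plots of both durations show 1 liver at 40 mg/mL far above the rest at 14 days for Cdk1 and Birc5 and none at 28 days.

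**Figure D5:**
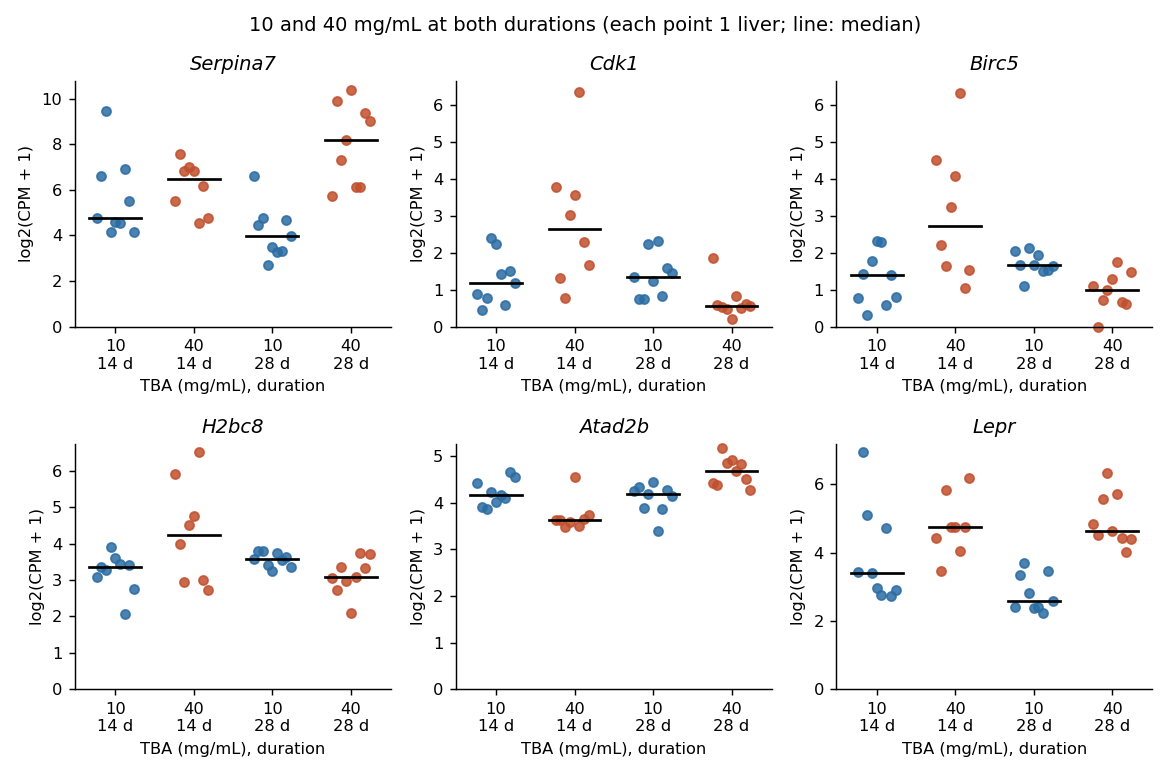
Level of 6 genes as log2(CPM + 1) (y axis) in each liver at 10 and 40 mg/mL (x axis) after 14 and 28 days; points are mice and lines are medians, with 9 mice a group and 8 at 40 mg/mL and 14 days. Serpina7 at 40 mg/mL is higher at 28 than at 14 days by its median, and Cdk1 and Birc5 at 40 mg/mL reach 79.9 and 79.8 CPM at 14 days only.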

How the data were processed

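TempO-Seq read counts per probe were used as deposited by the authors, who, per the submitters' processing notes, used bcl2fastq 2.20 and Bowtie; the probe sequences, the alignment settings and the genome build are not given in the sources used here. Features named "symbol_number" numbered 30146 for 21400 symbols, of which 21069 matched gene names. Libraries were grouped by labelled dose and duration, and 1 library with 0.0108 M counts (M, mega) was left out. The other 71 entered 1 edgeR 4.0.16 quasi-likelihood fit (R 4.3.3; TMM scaling, filterByExpr, robust; 17050 features kept, 99.93% of counts), with p-values adjusted by Benjamini-Hochberg over all features; the SE is the log2 fold change divided by the root of the F statistic. CPM are TMM-scaled. The fit was tested on simulated data. Permutation tests are exact and two-sided, with a prior count of 2. DESeq2 1.42.0, limma 3.58.1, sva 3.50.0, other scalings, filters and left-out libraries served as alternatives. Features named are all those called with a mean of at least 5 CPM, 22 genes listed by role (1 is not reported here), up to 3 members of each list by p, and the called duration differences. The members and gene lists were chosen with earlier results of these data known. Each library is 1 mouse.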

Additional observations from a re-analysis of the deposited data

Results flagged for a closer look

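In 32 groups of 9 values tested for a single stray value (the called features and 3 library measures at each dose), 4 held one. Chance alone flags about 1 group in 20 if values are spread normally. CPM can be skewed (Fgf21 at 40 mg/mL, 33.0 ± 52.0 CPM, SD), and 2 probes of a gene read the same mice. The rate of 1 in 20 therefore need not hold here. Mouse 1 at 10 mg/mL stood apart in both Serpina7 probes, at 95.2 CPM with the next mouse at 26.2 CPM (a gap of 0.770 of the range) and at 7.01 CPM with the next at 1.35 CPM (0.807). Mouse 3 at 40 mg/mL stood apart in the more abundant Fgf21 probe, at 162 CPM with the next at 47.5 CPM (0.709), and in the called Scp2 probe, at 362 CPM with the next at 221 CPM (0.555). Without both mice 5 features were called, all of them among the 13.

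The difference between 40 and 10 mg/mL itself differed between durations for 6 features, by edgeR's test of 28 minus 14 days: Serpina7 by 4.70 and 5.29 in its 2 probes, Atad2b by 1.12, Birc5 by -4.36, Cdk1 by -4.46 and H2bc8 by -2.15 on the log2 scale.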

How the results depend on the processing

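The 13 calls became 56 in DESeq2 (26 higher and 30 lower, 13 of the main calls kept), 160 in limma with quality weights (73 and 87, 11 kept), 24 with the compared groups alone (9 and 15, 10 kept), 26 with the 28 day groups alone (10 and 16, 13 kept), 225 with the log2 TMM factor as a covariate (165 and 60, 13 kept), 136 with 2 surrogate variables (48 and 88, 13 kept), 6 with the shallow library kept and 5 without the pair of mice with stray values. Leaving out 1 library of the 2 groups gave between 4 (without replicate 3 at 40 mg/mL) and 25 calls (without replicate 2 at 40 mg/mL), with 24, 6 and 8 without mice 9, 4 and 6 of that group and 20, 8 and 8 without mice 5, 4 and 6 at 10 mg/mL. Other scalings and filters gave 12 to 18. The 6 duration differences became 12 in DESeq2, 2 in limma, 11 with no filter, 1 with the compared groups alone, 1 with the covariate and 0 with surrogate variables (none of the 6 kept in these 3 settings), 87 without replicates 6 and 7 at 40 mg/mL and 2 without that pair, and 0 to 9 without single libraries of either duration. The 3 called list members became 9 in DESeq2, 12 in limma, 5 with the compared groups alone, 6 with the 28 day groups, 16 with the covariate and 18 with surrogate variables, and 1 to 5 without single libraries. Of the 22 genes listed by role, 1 passed with the covariate and 1 with surrogate variables (Me1 both times). Cyp2b10 changed sign to -0.463 in limma, -0.617 with surrogate variables and -0.710 on mean log2 CPM, was 0.669 without that pair, and ranged from -0.0659 to 0.509 without single libraries. Of the 13 role genes near 0, 11 changed sign in at least 1 alternative, within -0.538 to 0.658, and none was called. The cause of these changes was not tested. Leaving out that pair, leaving out single 14 day libraries and the permutation tests of called features were chosen after seeing the data. No paired analysis was possible because replicate numbers here only follow the order of the samples in the deposit. The depth limits features under about 1 CPM, where a library holds some 10 counts.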
